A study of Homo sapiens with 12 samples.

Results

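The transcripts of 10 keratin genes, KRT5, KRT7, KRT8, KRT14, KRT17, KRT18, KRT19, KRT80, KRT81 and KRT86, were examined in 2 human breast cancer cell lines grown inside synthetic hydrogels. The genes were chosen by name as the simple, basal and hair-type keratins seen in breast cancer cells, and all 10 had 1 entry each among the 23368 distinct genes of the deposited gene table, which holds 55 keratin genes in all. RNA was sequenced on day 3 from MDA-MB-231 cells, an estrogen receptor-negative line of basal subtype derived from a pleural effusion, and from T47D cells, an estrogen receptor-positive line of luminal A subtype. Each line was dispersed as single cells in a soft poly(ethylene glycol) gel crosslinked by a peptide that cells can cut, and the gel carried 1 of 2 pendant peptides. GFOGER mimics collagen and IKVAV mimics laminin. Counts were examined for MDA-MB-231 cells with GFOGER (n = 3) and with IKVAV (n = 2) and for T47D cells with GFOGER (n = 3) and with IKVAV (n = 3). Counts for the third MDA-MB-231 IKVAV sample, which the study left out as an outlier, were not analysed here. Each library came from 3 pooled gels of 1 cell line, there was no gel without peptide among these libraries, and the labels do not state that replicates were separate cultures, so the p-values measure the spread between these samples.

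Keratins are the intermediate filament proteins of epithelial cells. A filament is built from pairs of 1 type I and 1 type II keratin, so the 2 types are made together, and the pair a cell uses marks its kind. In the breast, KRT8 and KRT7 (type II) with KRT18 and KRT19 (type I) mark the luminal cells that line the ducts, whereas KRT5 (type II) with KRT14 and KRT17 (type I) mark the basal layer. KRT80 is a type II keratin of differentiating epithelia, and KRT81 and KRT86 are type II keratins of the hair shaft.

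Levels are given as cpm, the usual depth-scaled unit of sequencing counts, in which a gene's reads are set against the reads on all genes after TMM scaling, which corrects library sizes for differences in composition, and levels of different genes are compared only as cpm per kilobase of the length in the table. A gene was called differentially expressed at a Benjamini-Hochberg adjusted p-value below 0.05 in the edgeR quasi-likelihood test together with a fold change over 2, and the words rose and fell are used where the adjusted p-value alone passed. The libraries held 14337035 to 18449108 reads on genes. MDA-MB-231 GFOGER replicate 3 and T47D IKVAV replicate 3 stood apart from their replicates, with chi-square values of 16.4 to 18.6 per gene against 2.51 to 9.92 for the other replicate pairs. The deposited RPKM values imply library totals of 5191201 to 5774966 in MDA-MB-231 IKVAV replicate 1, all 3 T47D GFOGER libraries and T47D IKVAV replicate 3, against 19898878 to 22840524 in the other 6 libraries, although the counts do not differ in that way. For the 10 keratins, values that change without these libraries, or with the 2 levels of that total as a term in the fit, are given beside the results. For other genes, single values under these alternatives are not given, so their dependence on these libraries is not shown. In a fit of 1 line, that term leaves 1 IKVAV library to set against GFOGER, replicate 2 in MDA-MB-231 and replicate 3 in T47D cells. Without T47D IKVAV replicate 3, the peptides coincide with the 2 levels in T47D cells, so peptide and total cannot be told apart. In these bulk samples, fewer cells of a type and less RNA per cell cannot be told apart, and intervals on counts and floors cover counting error only.

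The labelled identities were checked against 8 luminal and 8 basal or mesenchymal marker genes. All 8 luminal markers were differentially expressed and lower in MDA-MB-231 cells. ESR1, the estrogen receptor, was at 259.9 to 313.5 cpm in T47D libraries and 0.515 to 0.783 cpm in MDA-MB-231 libraries. CDH1, which encodes E-cadherin, was at 999.2 to 1060 cpm against 2.29 to 5.47 cpm, and EPCAM, an epithelial adhesion protein, at 178.5 to 210.6 cpm against 8.47 to 11.2 cpm. VIM, which encodes vimentin, the intermediate filament protein of mesenchymal cells, was at 1430 to 2373 cpm in MDA-MB-231 libraries and 3.69 to 5.23 cpm in T47D libraries. Among the basal or mesenchymal markers, 5 were differentially expressed and higher in MDA-MB-231 cells and 2, CDH3 and ACTA2, were lower. CDH3 was at 0.186 to 1.16 cpm in MDA-MB-231 libraries and 68.4 to 97.9 cpm in T47D libraries, and ACTA2 at 2.87 to 3.79 against 6.58 to 8.46 cpm. TP63 was also lower in MDA-MB-231 cells, by the adjusted p-value alone. Of 8 markers of blood, endothelial and fat cells, 4 could be tested between the lines, 1 of them higher in MDA-MB-231 and 2 lower. Without TMM scaling, the 8 summed to 8.22 to 15.3 cpm in MDA-MB-231 libraries, 93.1% or more of it PECAM1. The sum was 1.40 to 3.22 cpm in T47D libraries, where PECAM1 was at 0.

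The first question was how the keratin makeup differed between the lines. The T47D cells carried mainly KRT19, KRT8 and KRT18, whereas the MDA-MB-231 cells carried these at lower levels together with KRT7, KRT80 and KRT81. Between the lines, averaged over both peptides, 8 of the 10 keratins could be tested and all 8 were differentially expressed, with 5 higher in MDA-MB-231 and 3 lower. Of all 15310 genes tested, 23.7% were called higher in MDA-MB-231 and 22.6% lower. The median absolute log2 difference was 2.30 over the 8 keratins and 0.90 over all genes. KRT5 and KRT14, the remaining 2, were close to 0 in both lines and had too few reads to be tested.

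KRT19, a type I keratin without the tail domain that other keratins have, was the most abundant of the 10 in T47D cells. Its level was 1527, 1618 and 1408 cpm in the T47D GFOGER libraries and 1623, 1529 and 1652 cpm in the T47D IKVAV libraries. In the MDA-MB-231 libraries it was 165.3, 168.6 and 197.5 cpm with GFOGER and 174.9 and 177.2 cpm with IKVAV. Every T47D library lay above every MDA-MB-231 library, and the log2 difference between the lines was -3.13 (SE 0.0688, adjusted p = 1.67e-19), or 8.75-fold lower in MDA-MB-231 cells. The gene lies at chr17:39679869-39684641.

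KRT8, the type II partner of KRT18 in simple epithelia, was at 817.6, 878.1 and 723.5 cpm in T47D GFOGER libraries and 1010, 960.9 and 908.9 cpm in T47D IKVAV libraries. Its MDA-MB-231 levels were 200.2, 183.5 and 235.7 cpm with GFOGER and 218.8 and 230.6 cpm with IKVAV. The lines did not overlap, and the log2 difference was -2.02 (SE 0.0753, adjusted p = 1.12e-15).

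KRT18, the type I partner, was at 506.9, 531.4 and 489.1 cpm with GFOGER and 501.4, 502.9 and 595.3 cpm with IKVAV in T47D libraries. Its MDA-MB-231 levels were 151.9, 144.4 and 156.1 cpm with GFOGER and 145.8 and 153.2 cpm with IKVAV. The log2 difference between the lines was -1.78 (SE 0.0613, adjusted p = 2.90e-16). KRT8 (chr12:53290971-53343650) and KRT18 (chr12:53342655-53346685) lie on opposite strands and share 996 bases in the gene table. Of the 51-base windows of their canonical transcripts, 45.9% for KRT8 and 37.6% for KRT18 also occur elsewhere in the genome, so part of their reads could have come from or been given to related copies, depending on how the counting treated them.

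KRT7, a type II keratin of ducts and glands, was on the other side. Its levels in MDA-MB-231 cells were 206.7, 215.5 and 278.6 cpm with GFOGER and 183.7 and 179.7 cpm with IKVAV. The T47D levels were 81.0, 90.6 and 69.0 cpm with GFOGER and 68.5, 50.9 and 80.7 cpm with IKVAV. All MDA-MB-231 libraries were higher, with a log2 difference of 1.51 (SE 0.103, adjusted p = 2.77e-11), or 2.85-fold.

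KRT80, at chr12:52562780-52585784, differed between the lines by the same 2.85-fold. Its levels were 215.4, 216.2 and 260.4 cpm with GFOGER and 156.3 and 153.1 cpm with IKVAV in MDA-MB-231 libraries. The T47D levels were 65.0, 68.1 and 56.3 cpm with GFOGER and 60.1, 51.9 and 100.9 cpm with IKVAV, so T47D IKVAV replicate 3 stood above the other 5 T47D libraries but below all MDA-MB-231 libraries. The log2 difference was 1.51 (SE 0.119, adjusted p = 2.78e-10). It was 1.90 among GFOGER libraries alone and 1.15 among IKVAV libraries alone.

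KRT81, a hair keratin at chr12:52679697-52685299, came closest to a presence or absence difference. It was at 63.9, 62.7 and 76.3 cpm with GFOGER and 49.2 and 47.4 cpm with IKVAV in MDA-MB-231 libraries, where its count was 765 to 1365 per library. The T47D counts were 3, 0 and 2 with GFOGER and 2, 5 and 1 with IKVAV. The ratio of the summed counts, 5044 against 13, was 436.2 per read on genes (exact 95% interval 254.9 to 819.8). The fitted log2 difference was 8.73 (SE 0.192, adjusted p = 1.64e-19).

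KRT86, its neighbour at chr12:52695649-52702947, had far fewer reads. In MDA-MB-231 cells the levels were 3.32, 4.72 and 4.98 cpm with GFOGER and 7.53 and 4.75 cpm with IKVAV, and in T47D cells they were 0.787, 1.026 and 0.4002 cpm with GFOGER and 0.403, 0.483 and 0.721 cpm with IKVAV. The log2 difference was 3.03 (SE 0.245, adjusted p = 4.28e-10), without overlap. KRT81 and KRT86 transcripts share 716 windows of 51 identical bases, and 34.1% of the KRT86 windows and 42.7% of the KRT81 windows occur in another place, so reads could be split between them and the level of the rarer KRT86 is uncertain. With the counts of both added together, 7 of 7 keratins were called between the lines.

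The basal keratins were the rarest of the set in the line labelled basal. KRT5 had 2 counts over all 11 libraries, 1 in MDA-MB-231 IKVAV replicate 2 and 1 in T47D GFOGER replicate 2. KRT14 also had 2 counts, 1 in MDA-MB-231 GFOGER replicate 3 and 1 in T47D IKVAV replicate 2. These counts are under the floor of 3, which over the 11 libraries equals 0.0164 cpm before TMM scaling. No difference between lines or peptides was thus detectable at this depth. Both lines were thus under the floor for this basal pair.

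KRT17, the remaining basal keratin, was low but present in MDA-MB-231 cells. Its counts were 12, 10 and 12 with GFOGER and 2 and 1 with IKVAV in MDA-MB-231 libraries and 1, 0 and 0 with GFOGER and 1, 2 and 0 with IKVAV in T47D cells. The GFOGER libraries of MDA-MB-231 cells stood above all others, whereas the IKVAV libraries overlapped with T47D. Only the GFOGER libraries of MDA-MB-231 cells held enough reads for the low-count filter, so KRT17 was tested through the group where it was high. The summed counts of 37 and 4 gave a ratio of 10.4 per read on genes (exact 95% interval 3.74 to 40.2). The fitted log2 difference between the lines was 2.58 (SE 0.857, adjusted p = 0.00910). The adjusted p-value was 0.0967 without MDA-MB-231 IKVAV replicate 1 and 0.0526 with the implied library total as a term, and without MDA-MB-231 GFOGER replicate 1 or 3 the gene had too few reads to be tested.

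**Figure D1:**
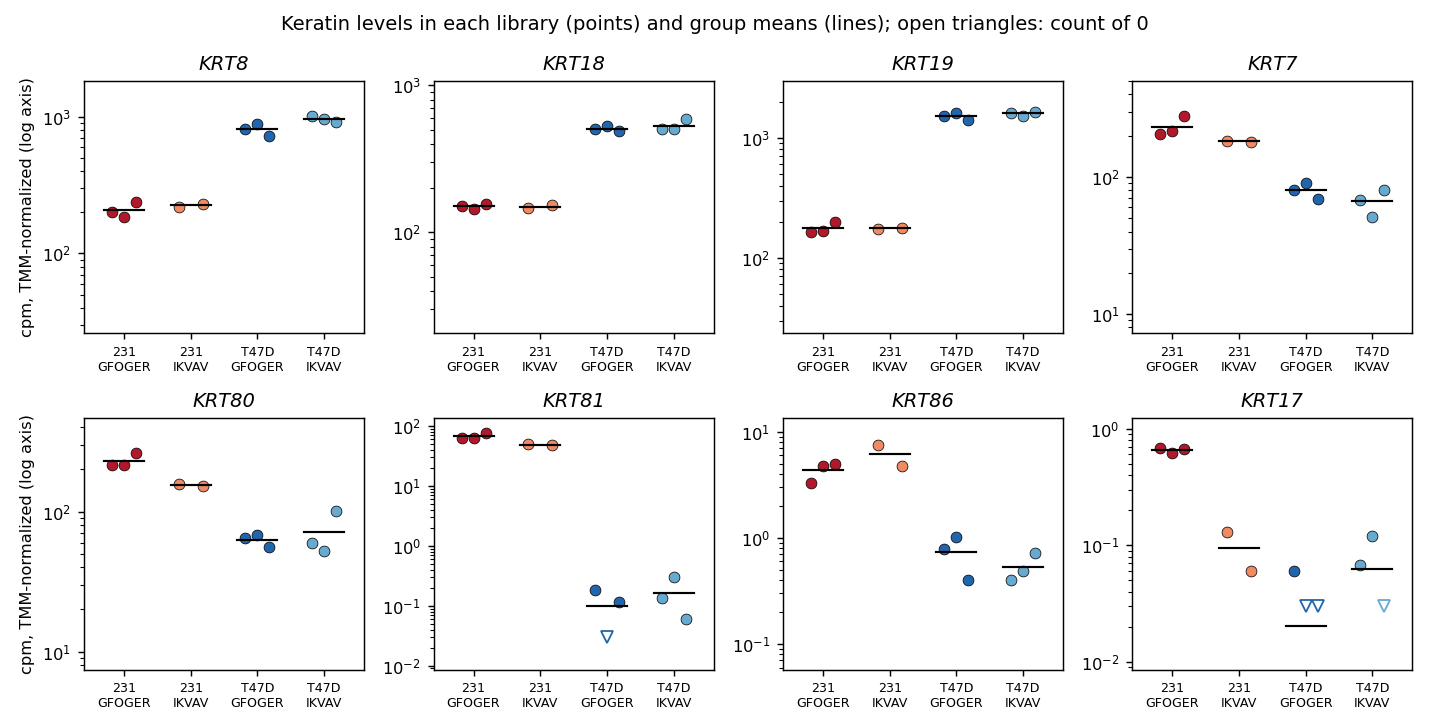
Levels of 8 keratins in each library, in TMM-normalized cpm on log axes, with 1 panel per gene, libraries as points, group means as lines and counts of 0 as open triangles. T47D libraries lie above MDA-MB-231 libraries for KRT8, KRT18 and KRT19 and below them for KRT7, KRT80, KRT81 and KRT86, and KRT17 stands out in the 3 MDA-MB-231 GFOGER libraries.

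Per kilobase, the order of the keratins differed between the lines. In T47D GFOGER libraries the mean levels were 1032 ± 71.5 cpm per kilobase for KRT19, 356 ± 34.4 for KRT8, 331.7 ± 13.8 for KRT18, 47.1 ± 6.36 for KRT7 and 16.2 ± 1.58 for KRT80 (SD, n = 3). KRT8 and KRT18 were within their spread of each other, and KRT19 and KRT7 were separated from both. In MDA-MB-231 GFOGER libraries the means were 137.2 ± 23.0 cpm per kilobase for KRT7, 120.4 ± 12.04 for KRT19, 98.2 ± 3.84 for KRT18, 91.2 ± 11.8 for KRT8, 59.2 ± 6.61 for KRT80 and 35.4 ± 3.94 for KRT81 (SD, n = 3). KRT7 and KRT19 overlapped, as did KRT18 and KRT8, while KRT19 lay above KRT18, and KRT80 and KRT81 lay below them. With IKVAV the MDA-MB-231 order was led by KRT19 at 119.7 ± 1.101 cpm per kilobase, followed by KRT7 at 106.8 ± 1.67 (SD, n = 2). Windows that occur elsewhere made up 45.9% of KRT8 and 37.6% of KRT18, against 0.698% of KRT7 and 1.64% of KRT19. The levels were not corrected for this, so the order of KRT8 and KRT18 against KRT7 and KRT19 in MDA-MB-231 cells is uncertain.

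As a share of the summed cpm per kilobase of the 10 genes, KRT19 made up 56.6 to 58.0% in T47D libraries and 21.9 to 24.4% in MDA-MB-231 libraries. KRT7 made up 1.63 to 2.79% in T47D libraries and 21.4 to 26.7% in MDA-MB-231 libraries. KRT8 and KRT18 held similar shares in both lines. KRT8 was 15.97 to 20.6% in MDA-MB-231 and 19.4 to 23.1% in T47D libraries, and KRT18 was 16.6 to 20.2% and 16.9 to 19.5%. The sum of the type I levels over the sum of the type II levels was 0.706, 0.701 and 0.627 with GFOGER and 0.781 and 0.804 with IKVAV in MDA-MB-231 libraries. The T47D ratios were 3.21, 3.15 and 3.41 with GFOGER and 2.85, 2.92 and 3.18 with IKVAV. MDA-MB-231 cells thus had more type II than type I keratin transcript in all 5 libraries and T47D cells the reverse in all 6. Shares and ratios were likewise not corrected for windows that occur elsewhere. All 55 keratin genes together took 0.0948 to 0.121% of the reads on genes in MDA-MB-231 libraries and 0.297 to 0.355% in T47D libraries, and the 10 genes held 94.8 to 97.7% of these reads.

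**Figure D2:**
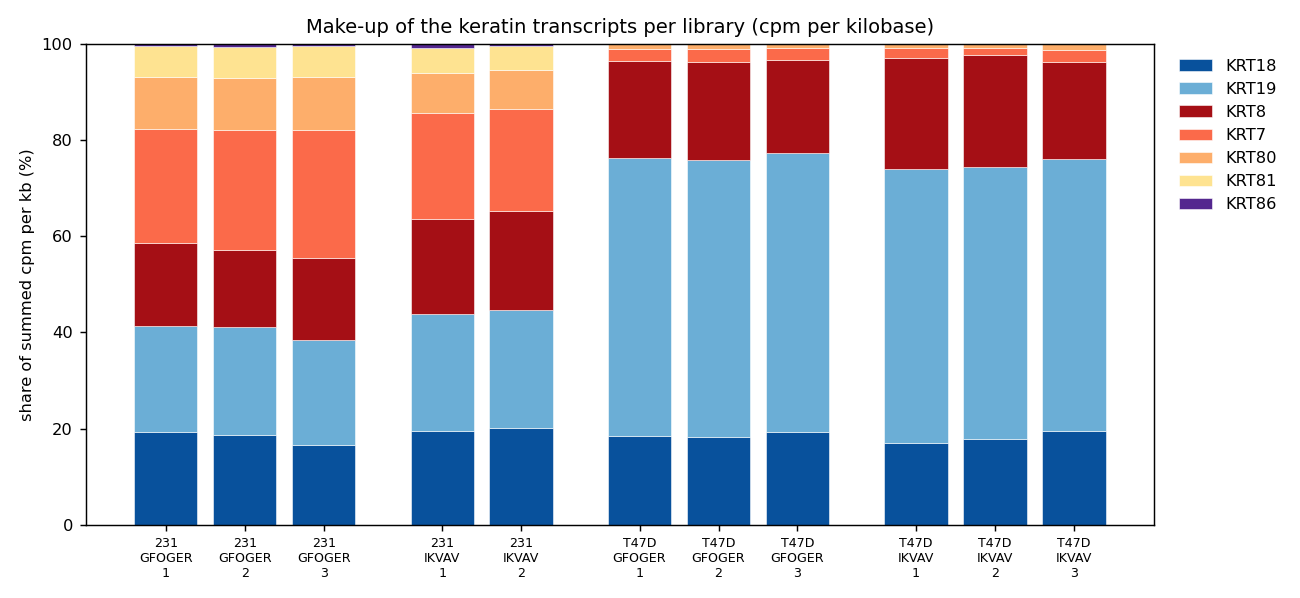
Share of the summed cpm per kilobase of the 10 keratins (vertical axis, percent) held by each of the 7 that are visible at this scale, in each of the 11 libraries. KRT19 fills 56.6 to 58.0% of each T47D bar, and KRT7, KRT80 and KRT81 fill a larger share in the 5 MDA-MB-231 bars.

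Of the other 45 keratin genes, 14 had no count in any library, 6 reached 1 cpm in some library and 7 could be tested between the lines. Of these, MDA-MB-231 was called higher for 2 and lower for 4. KRT23, a type I keratin, was the most different, with 89.2 to 118.1 cpm in T47D libraries and 9 counts over the 5 MDA-MB-231 libraries (log2 difference -9.97, SE 0.172, adjusted p = 3.99e-21). KRT15, a type I keratin of basal cells, was also higher in T47D cells, at 22.3 to 33.8 cpm against 1.74 to 5.98 cpm (log2 difference -2.96, adjusted p = 3.77e-13). KRT79, a type II keratin, had 124 counts in MDA-MB-231 and 1 in T47D libraries, a ratio of 139.4 (exact 95% interval 24.6 to 5550). KRT222 had 1 count against 118, a ratio of 105 in favour of T47D (18.5 to 4180). KRT34 had 49 counts in MDA-MB-231 and none in T47D libraries, although MDA-MB-231 IKVAV replicate 2 was also at 0. It was 18.4-fold higher when a floor of 3 counts stood in for the T47D libraries, and the exact 95% lower limit was 14.4-fold. KRT33A had none in MDA-MB-231 and 48 in T47D libraries. It was 14.2-fold lower when the same floor stood in for the MDA-MB-231 libraries, and the exact 95% limit was 11.1-fold.

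**Figure D3:**
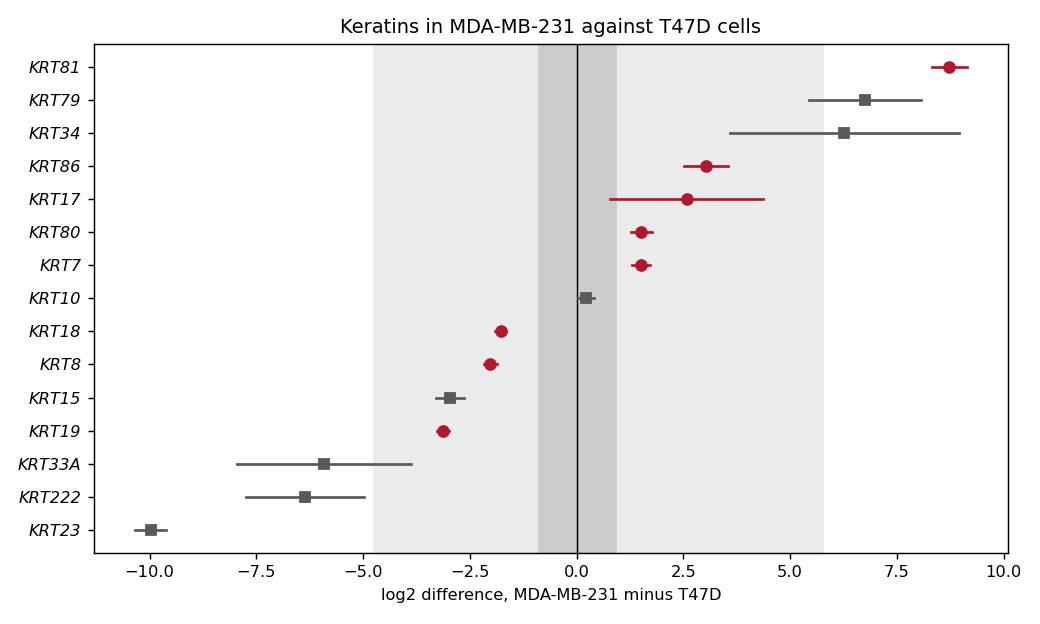
Log2 difference between MDA-MB-231 and T47D cells (horizontal axis, positive where MDA-MB-231 is higher) for the 8 tested keratins of the set (red circles) and the 7 other tested keratins (grey squares), with 95% confidence intervals. The dark band holds the middle 50% of all genes tested and the light band the middle 90%. KRT81 at 8.73 and KRT23 at -9.97 lie at the ends.

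The second question was whether keratins responded to the peptide in MDA-MB-231 cells. With GFOGER relative to IKVAV, KRT80, KRT81 and KRT7 rose by less than 2-fold and the rare KRT17 was called. KRT8, KRT18, KRT19 and KRT86 did not pass the test. Of the luminal keratins of the set only KRT7 thus passed, and whether keratins differed from each other in response was not tested. Of the 8 keratins tested, 1 was differentially expressed, and it was higher, where 3.12% of all 14090 genes tested were called higher and 6.46% lower. By the adjusted p-value alone 4 keratins were higher and none was lower, where 21.4% of all genes tested were higher and 21.4% lower. The median log2 difference was 0.18 over the 8 keratins and 0.0039 over all genes, and the median absolute difference 0.41 and 0.34.

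KRT80 showed the most precise of these changes. Both IKVAV libraries, at 156.3 and 153.1 cpm, lay below the 3 GFOGER libraries, of which the lowest was 215.4 cpm. The log2 difference was 0.57 (SE 0.102, adjusted p = 0.000315), or 1.48-fold, and it stayed between 0.47 and 0.62 when any 1 library was left out, with an adjusted p-value of at most 0.0162. KRT81 rose by 0.48 on the log2 scale (SE 0.118, adjusted p = 0.00379), or 1.39-fold, from 49.2 and 47.4 cpm to 62.7 cpm or more. Without MDA-MB-231 IKVAV replicate 2 its adjusted p-value was 0.0669.

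KRT7 rose by 0.35 (SE 0.116, adjusted p = 0.0213), or 1.28-fold, with both IKVAV libraries below all 3 GFOGER libraries. Its highest value, 278.6 cpm, came from GFOGER replicate 3, the library that stood apart, and without that library the log2 difference was 0.20 (adjusted p = 0.000456). The adjusted p-value was 0.113 without IKVAV replicate 1, 0.156 without IKVAV replicate 2, 0.117 with the implied library total as a term and 0.066 in a fit of all 4 groups.

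KRT17 was the 1 called gene, on few reads. It passed the low-count filter only through the GFOGER libraries, the group where it was high, so the call carries that selection. The 34 counts with GFOGER against 3 with IKVAV gave a ratio of 6.94 per read on genes (exact 95% interval 2.18 to 35.3). The fitted log2 difference was 2.72 (SE 0.773, adjusted p = 0.00939). Without IKVAV replicate 2 it was 2.29 with an adjusted p-value of 0.109.

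KRT8, KRT18 and KRT19, unlike the luminal keratin KRT7, had intervals that include 0. The log2 difference was -0.13 for KRT8 (95% interval -0.35 to 0.09, adjusted p = 0.328), 0.0024 for KRT18 (-0.19 to 0.20, adjusted p = 0.987) and -0.00011 for KRT19 (-0.21 to 0.21, adjusted p = 0.999). KRT8 depended on GFOGER replicate 3, its highest GFOGER library. Without that library the log2 difference was -0.24 (adjusted p = 2.77e-05). KRT86 had a log2 difference of -0.51 (SE 0.25, adjusted p = 0.114), opposite in sign to its neighbour KRT81, with counts of 58, 76 and 89 against 117 and 79. Its adjusted p-value was 0.0269 without GFOGER replicate 3 and 0.0469 without IKVAV replicate 2.

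Within these cells the ratio of KRT7 to KRT8, per kilobase, was 1.37 to 1.57 in the 3 GFOGER libraries and 1.04 to 1.12 in both IKVAV libraries, and that of KRT80 to KRT8 was 0.626 to 0.685 and 0.386 to 0.416. Neither ratio overlapped between the peptides. The ratio of KRT19 to KRT18 did overlap, at 1.14 to 1.32 with GFOGER and 1.21 to 1.25 with IKVAV. These ratios are given as a description and were not tested.

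The third question was whether T47D cells responded, and whether the lines differed in this. In T47D cells 6 of the 10 keratins could be tested and none was differentially expressed or passed the adjusted p-value alone by edgeR. KRT8 had an unadjusted p-value below 0.05, and DESeq2 called none. Of all 13639 genes tested, 0.022% were differentially expressed and 0.044% passed the adjusted p-value alone, so calls were rare for any gene.

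KRT8 came nearest. Its 3 GFOGER libraries, at 723.5 to 878.1 cpm, all lay below its 3 IKVAV libraries, at 908.9 to 1010 cpm, and the log2 difference was -0.27 (SE 0.0856, unadjusted p = 0.00726, adjusted p = 0.286). Without T47D IKVAV replicate 3, the library that stood apart, it was -0.32 with an adjusted p-value of 0.0134. KRT7 had a log2 difference of 0.25 (SE 0.14, adjusted p = 0.528), and 0.40 (adjusted p = 0.0331) without the same library. Without that library, the GFOGER libraries were all at the low implied total and both IKVAV libraries at the high level. Peptide and total could then not be told apart for either gene. With the implied library total as a term, the GFOGER libraries were in effect set against IKVAV replicate 3 alone, which shares their low level. KRT8 was then at -0.17 and KRT7 at -0.0038.

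KRT80 had a log2 difference of -0.18 (SE 0.18, adjusted p = 0.751), which rested on T47D IKVAV replicate 3 at 100.9 cpm. Without that library it was 0.15 (adjusted p = 0.405). The fit with the implied library total as a term, which again set GFOGER against that library alone, gave -0.67. KRT18 was at -0.08 (95% interval -0.26 to 0.09, adjusted p = 0.748), KRT19 at -0.09 (-0.26 to 0.07, adjusted p = 0.685) and KRT86 at 0.42 (-0.55 to 1.40, adjusted p = 0.778). KRT81, with 5 counts against 8, had a ratio of 0.591 per read on genes (exact 95% interval 0.152 to 2.05). Its response was thus not detectable in these cells at this depth.

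The ratio of KRT8 to KRT18, per kilobase, was 1.09, 1.12 and 1.00 in T47D GFOGER libraries and 1.37, 1.30 and 1.04 in T47D IKVAV libraries. IKVAV replicate 3 was the one with a ratio close to that of the GFOGER libraries, and it shares their low implied library total. The part of that total in the ratio was not tested. In MDA-MB-231 cells the ratio was 0.893, 0.861 and 1.02 with GFOGER and 1.02 and 1.02 with IKVAV.

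**Figure D4:**
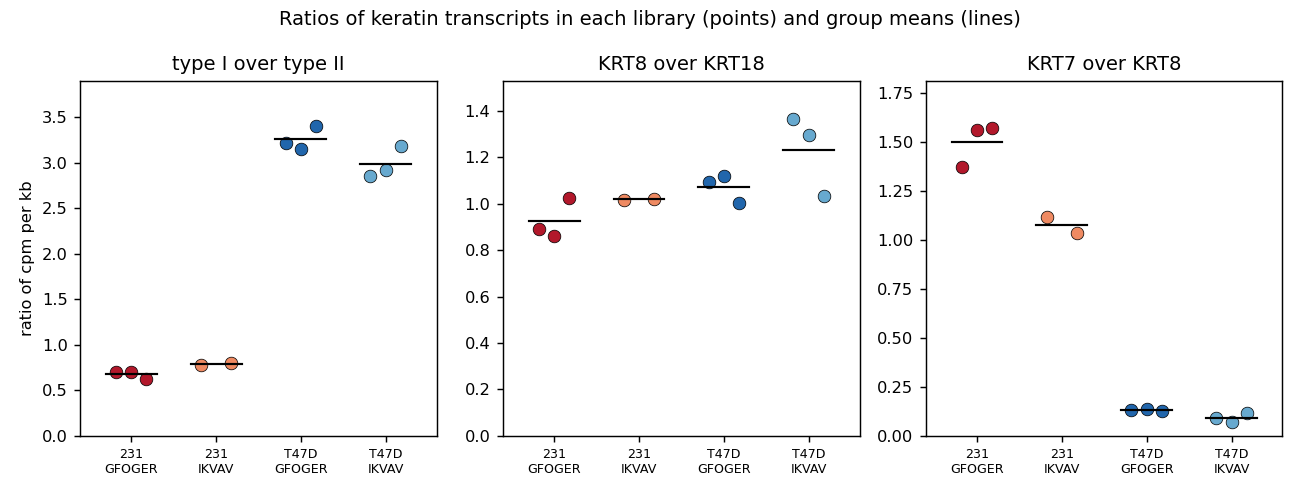
Ratios of cpm per kilobase in each library (points) with group means (lines) for the summed type I over type II keratins, KRT8 over KRT18 and KRT7 over KRT8. T47D libraries lie at 2.85 to 3.41 and MDA-MB-231 libraries at 0.627 to 0.804 in the first panel, and T47D IKVAV replicate 3 lies at 1.04 in the second.

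The difference in response between the lines, tested as an interaction over all 4 groups, was called for 0 of the 8 keratins by edgeR, where 6.43% of all 15310 genes were called in either direction, and for 0 by DESeq2. By the adjusted p-value alone KRT80 passed, where 21.1% of all genes passed, and 2 of the 8, KRT17 and KRT80, had an unadjusted p-value below 0.05. The response of KRT80 to GFOGER was larger in MDA-MB-231 than in T47D cells by 0.76 on the log2 scale (SE 0.239, 95% interval 0.26 to 1.26, adjusted p = 0.0288). It was 0.43 (adjusted p = 0.045) without T47D IKVAV replicate 3 and 1.26 (adjusted p = 0.00125) with the implied library total as a term. It did not pass without MDA-MB-231 IKVAV replicate 1 (0.0932) or 2 (0.117) or T47D GFOGER replicate 1 (0.0531) or 3 (0.0671), nor with DESeq2 (0.149), each value an adjusted p. KRT17 had an interaction of 4.10 (SE 1.71, adjusted p = 0.0955). For KRT7, KRT8, KRT18 and KRT19 the interaction was between 0.09 and 0.15, with adjusted p-values of 0.494 to 0.743, so no difference in response was shown for them.

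**Figure D5:**
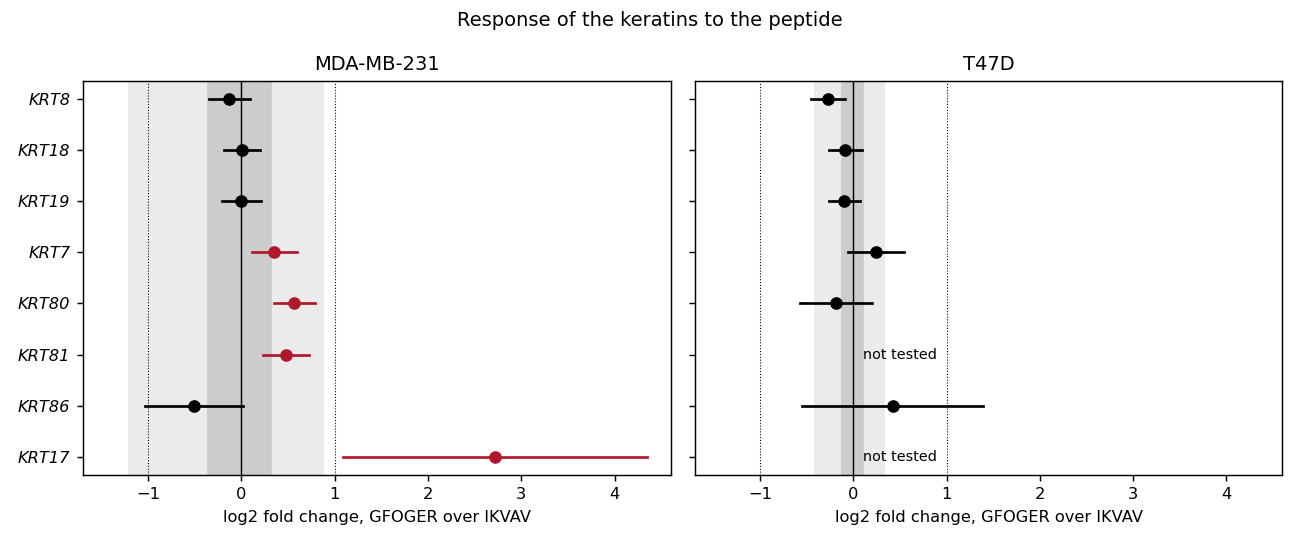
Log2 fold change of GFOGER over IKVAV for each tested keratin, with its 95% confidence interval, in MDA-MB-231 (left) and T47D (right) cells, red where the adjusted p-value was below 0.05. The dark and light bands hold the middle 50% and 90% of all genes tested in that line, and dotted lines mark a 2-fold change. KRT7, KRT80, KRT81 and KRT17 are red on the left and no gene is on the right.

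None of the other keratins was called with GFOGER in MDA-MB-231 cells by edgeR, out of 5 tested, but 2 rose: KRT10, the type I keratin of differentiated epidermis, by 0.67 on the log2 scale (adjusted p = 0.00078) and KRT15 by 0.93 (adjusted p = 0.0171). In T47D cells 4 were tested and none passed, also at an unadjusted p-value.

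Genes that act with keratins were counted in lists of pathway partners. Cytolinkers and binding partners tie filaments to desmosomes, other filaments and signalling proteins. Between the lines, 3 of the 17 tested were called higher in MDA-MB-231 cells, where 23.7% of all genes were called higher. These were MACF1, DST and PLEC, with log2 differences of 3.13, 2.40 and 1.42. A further 6 were called lower, where 22.6% of all genes were, among them EPPK1 at -6.43, FAM83H at -4.56 and JUP, which encodes plakoglobin, at -2.37. With GFOGER in MDA-MB-231 cells, SFN, a 14-3-3 protein known to bind keratins, was called higher at 1.23 (adjusted p = 1.01e-06) and JUP lower at -1.21 (adjusted p = 1.87e-07), and 6 rose and 4 fell by the adjusted p-value alone, where 21.4% of all genes did in each direction. In T47D cells 0 of 17 passed, none of them at an unadjusted p-value. The interaction was called for SFN at 1.077 and JUP at -1.13.

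Of 11 tested genes for other intermediate filaments and lamins, 4 were called higher in MDA-MB-231 cells and 3 lower, beside 23.7% and 22.6% of all genes. VIM differed by 8.72 on the log2 scale and SYNM, which encodes synemin, by 4.68, and LMNB1, a nuclear lamin, by -1.44. With GFOGER in MDA-MB-231 cells none of 9 tested was called, but VIM rose by 0.67 (adjusted p = 2.15e-06), LMNB2 rose by 0.29 (adjusted p = 0.0336) and SYNM fell by 0.69 on the log2 scale (adjusted p = 2.17e-05). In T47D cells 0 of 10 passed.

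Among transcription and splicing factors of epithelial identity, 5 of 22 tested were called higher in MDA-MB-231 cells and 14 lower, again beside 23.7% and 22.6% of all genes. ZEB1, SNAI2 and ZEB2, repressors of epithelial genes, had log2 differences of 8.86, 7.94 and 7.57. ELF5, FOXA1 and ESRP1, factors of luminal or epithelial cells, had -9.77, -9.11 and -9.02. KLF4 and KLF5 were also called higher in MDA-MB-231 cells. Mean KLF5 levels were 72.0 and 45.9 cpm there with GFOGER and IKVAV, against 11.9 and 14.2 cpm in T47D cells. TWIST1 went the other way from ZEB1, with 0 cpm in MDA-MB-231 cells and means of 1.72 and 1.89 cpm in T47D cells. With GFOGER in MDA-MB-231 cells none of 17 was called higher and 4 were called lower, with GRHL3 at -2.21, ELF3 at -2.06 and TP63 at -1.92 changing most. SNAI1 was also called lower, at a mean of 2.97 cpm against 7.13 cpm with IKVAV. By the adjusted p-value alone 4 rose and 6 fell, beside 21.4% of all genes in each direction. ZEB1 was among those that fell, at a mean of 111.7 against 146.5 cpm, whereas SNAI2 was at 46.2 against 23.5 cpm. In T47D cells 0 of 19 passed after adjustment, and 5 had an unadjusted p-value below 0.05. The interaction was called higher for 1, KLF4 at 1.46, and lower for 4.

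The profiles most like those of the 5 abundant keratins were sought over all 11 libraries, as the smallest root mean square distance between log2 cpm values centred on each gene's mean. Most of any such profile is the difference between the lines, so likeness is a description over libraries of only 2 lines. KRT18 lay closest to PHKA2, COX15 and GALNT6, at 0.0759, 0.083 and 0.0872, where the median distance over genes was 0.97. KRT19 lay closest to NR4A1, EFNA1 and SIAH2, at 0.0747, 0.0833 and 0.0993 (median 1.59). KRT8 was nearest VDR, WDR90 and BAHD1, at 0.106, 0.152 and 0.154 (median 1.09). KRT7 was nearest MYADM, ALDH1B1 and TNFSF12, at 0.129, 0.131 and 0.135 (median 0.92), and KRT80 nearest CSRNP1, NT5DC3 and WDR1, at 0.134, 0.18 and 0.183 (median 0.96). Among the keratins themselves, KRT8 and KRT18 were 0.189 apart and KRT7 and KRT80 0.202 apart, whereas KRT7 and KRT8 were 1.81 apart.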

How the data were processed

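Gene counts from stranded poly-A RNA-seq libraries of both lines, taken on day 3 of culture in hydrogels with GFOGER or IKVAV, were analysed for 11 of 12 samples, each made from 3 pooled gels. Per the labels, reads were checked with FastQC, trimmed with Trim Galore 0.4.4, aligned to hg19 with TopHat2 2.1.0 and counted with HTSeq 0.6.1p1, and the submitters' notes also name bedtools 2.17, SAMtools 1.4 and edgeR 3.16.5. The strand setting and the treatment of reads with several matches are not given in the sources used here. The authors deposited raw counts and RPKM values per gene, the latter divided by the gene length and a library total. The RPKM values served only to compute those totals.

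Of 24656 entries, 1288 repeats of a gene name were left out. Library sizes of 14337035 to 18449108 reads on genes set the precision. The floor used, 3 counts, equals 0.163 to 0.209 cpm per library before TMM scaling. Counts were fitted in R 4.3.3 with edgeR 4.0.16 (TMM, filterByExpr defaults, glmQLFit and glmQLFTest, Benjamini-Hochberg over all genes tested). Each line was fitted on its own for the peptides, and all 4 groups together for the lines and the interaction. A call required more than a 2-fold change and an adjusted p under 0.05. Standard errors were derived from the F statistic. Ratios of small counts have exact conditional (Clopper-Pearson) 95% intervals. Alternatives were DESeq2 1.42.0, other scalings, filters and thresholds, added counts of KRT81 and KRT86, a term for the library totals implied by the RPKM values, a replicate block and leaving out each library. Same-numbered samples did not deviate together (correlations -0.12 to 0.0502), so the numbers were not used as pairs. Named genes were all 10 keratins, other keratins called between groups (at most 5 per comparison by size of change, to which KRT15 and KRT10 were added after their values were seen), up to 3 genes per list, direction and comparison, of which some with few reads were left out, and identity markers. Members and lists were chosen with earlier results of these data known. Canonical transcripts for the window comparison were read from GRCh37, the hg19 build, with GENCODE v44 lifted to that build. Promoter sequences are not reported here.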

Additional observations from a re-analysis of the deposited data

Results flagged for a closer look

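The response of KRT80 to GFOGER relative to IKVAV was larger in MDA-MB-231 than in T47D cells by 0.761 on the log2 scale (SE 0.239, edgeR adjusted p = 0.0288), a difference between groups under the same contrast. KRT80 was higher with GFOGER in all 3 against both IKVAV libraries of MDA-MB-231 cells, while the T47D libraries overlapped. The adjusted p-value ranged from 0.00519 to 0.117 when 1 library was left out.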

How the results depend on the processing

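Of 530 values of single keratins under the alternatives, 486 kept their direction and their side of the threshold, 19 lost significance, 8 gained it and 17 changed sign, all of the last from values that had not passed the test. Between the lines 8 keratins were called, and 5 with at least 10 counts in every library, a filter that removes genes with few reads, and 7 to 8 when 1 library was left out. In MDA-MB-231 cells 1 was called, against 0 with at least 10 counts in every library, 0 with a 2-fold threshold inside the test, 4 by the adjusted p-value at any fold, and 0 to 1 when 1 library was left out (0 without IKVAV replicate 2). In T47D cells 0 were called under every alternative. In the interaction 0 were called, and 1 at any fold or with the implied library total as a term (KRT80 in both).

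KRT18 in MDA-MB-231 cells was at -0.02869 with upper-quartile scaling, -0.01904 with library size alone, -0.008197 with at least 10 counts in every library, -0.02662 with the replicate block, -0.03342 with the implied library total and -0.02913 to 0.04063 with 1 library left out. KRT19 there was at 0.003617 with DESeq2, 0.01272 without a filter, 0.008498 in 1 fit of 4 groups and -0.09107 to 0.05162 with 1 library left out. In T47D cells KRT7 was at -0.003776 with the implied library total, and KRT80 ranged from -0.3643 to 0.1458 with 1 library left out. The KRT7 interaction ranged from -0.04736 to 0.2627 with 1 library left out. The cause of these changes was not tested.

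The numbers do not pair the samples, and the replicate block gave 8, 1, 0 and 0 called keratins in the comparisons of the lines, MDA-MB-231, T47D and the interaction. Under the block, KRT8 and KRT86 in MDA-MB-231 cells passed the adjusted p-value (1.65e-06 and 0.028) and the KRT80 interaction did not (0.0807). The KRT80 interaction also failed to pass with DESeq2 (0.149), with a 2-fold threshold inside the test, and without MDA-MB-231 IKVAV replicate 1 (0.0932) or 2 (0.117) or T47D GFOGER replicate 1 (0.0531) or 3 (0.0671). Over all genes, 3 were called in T47D cells, and 94 without IKVAV replicate 3, 20 without a filter and 0 to 2 without any 1 of the other 5 libraries. Without IKVAV replicate 3 the peptides coincide with the 2 levels of the implied total, so the 94 calls cannot be assigned to either. In MDA-MB-231 cells 1349 were called, and 401 with the threshold inside the test. The comparison of KRT5, KRT14 and, in T47D cells, KRT17 and KRT81 is limited by depth.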
